A study of Mus musculus with 3 samples.

Results

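The keratins described here are the suprabasal and hair keratins of mouse basal-derived prostate organoids, 35 of the 18890 genes in a table of chromatin accessibility. They were taken by name, as every gene named Krt with a number, without the keratins of basal and stressed cells (*Krt5*, *Krt14*, *Krt15*, *Krt17*, *Krt6a*, *Krt6b* and *Krt16*) and those of simple epithelia (*Krt7*, *Krt8*, *Krt18* and *Krt19*). Of these 35, 19 are type I keratins in the cluster on chromosome 11 and 16 are type II keratins in the cluster on chromosome 15. The table lists only genes with at least 1 peak nearby, and *Krt2*, the suprabasal keratin of thick epidermis, is not among them. The gene named *Krt83* in the table is *Krt87* in the RefSeq annotation by its gene ID, while the other 34 carry the same name in both.

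Keratins build the intermediate filaments of epithelial cells, and a filament forms only from a pair of 1 type I and 1 type II chain. Basal cells of stratified epithelia pair KRT14 with KRT5. Cells that leave the basal layer switch to suprabasal pairs, KRT10 with KRT1 in epidermis and KRT13 with KRT4 in the mouth, oesophagus and other internal linings, and the hair follicle uses its own sets for the hard shaft and for the inner root sheath around it. The genes are arranged in tandem, so neighbours often lie within a few kilobases of each other. Most of these keratins are not known as markers of normal prostate epithelium, whose basal cells carry KRT5 and KRT14 and whose luminal cells carry KRT8 and KRT18.

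Organoids were grown from wild-type primary basal cells of mouse prostate, from adult male C57BL/6J mice per the study's methods, and kept for 7 days with 10 µM UK5099, with 20 mM sodium lactate or with vehicle. UK5099 blocks the mitochondrial pyruvate carrier, through which pyruvate enters mitochondria, and the study asked how this block and added lactate alter chromatin. ATAC-seq, in which a transposase cuts and tags open DNA, is given here by 1 library per group, so no difference has a replicate check and no p-value is given. The sources used here do not say how many mice or cultures went into a library. The measure throughout is the deposited peak height, the number of stacked reads at the top of a region after scaling, as a mean over the merged regions listed for a gene.

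The UK5099 library was the shallowest by the step between deposited heights, and the lactate and vehicle libraries were 2.12 and 1.74 times as deep if the deposited scaling equalised depth. The median height over all genes was 58.7 in UK5099 and 60.3 in lactate, against 51.3 in vehicle, and the median gene stood at 1.15-fold of vehicle in UK5099 and 1.18-fold in lactate. Of the 5 prostate basal markers all were listed, with a summed height of 298.7 in UK5099 and 302.0 in lactate, against 228.2 in vehicle. Of 6 luminal markers 5 were listed, *Pbsn* not being among them, with sums of 182.8 in UK5099 and 282.4 in lactate, against 254.4 in vehicle. Of 6 epidermis and hair follicle markers 4 were listed (*Lor*, *Tchh*, *Hr* and *Foxn1*), with sums of 249.7 in UK5099 and 244.7 in lactate, against 185.7 in vehicle, and none of *Svs2*, *Svs4* and *Pate4* of the seminal vesicle was listed. In bulk organoids a change in the share of cells of a type and a change of accessibility within cells cannot be told apart.

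The members had low chromatin signal. Their median height was 46.0 in UK5099 and 43.6 in lactate, against 31.3 in vehicle, and 24 of 35 lay below the all-gene median of their library in UK5099 and 28 in lactate, against 31 in vehicle. A called peak was present for 31 members in UK5099 (88.6%) and for 31 in lactate (88.6%), against 29 in vehicle (82.9%). Over all genes the share was 94.2% in UK5099 and 96.3% in lactate, against 94.7% in vehicle. The median member had 118 stacked reads in UK5099 and 210 in lactate, against 112 in vehicle, with 9 reads for *Krt20* in UK5099 as the smallest number. Each ratio below is followed in parentheses by its exact conditional 95% interval (Clopper-Pearson), which covers counting error only and no variation between cultures.

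**Figure D1:**
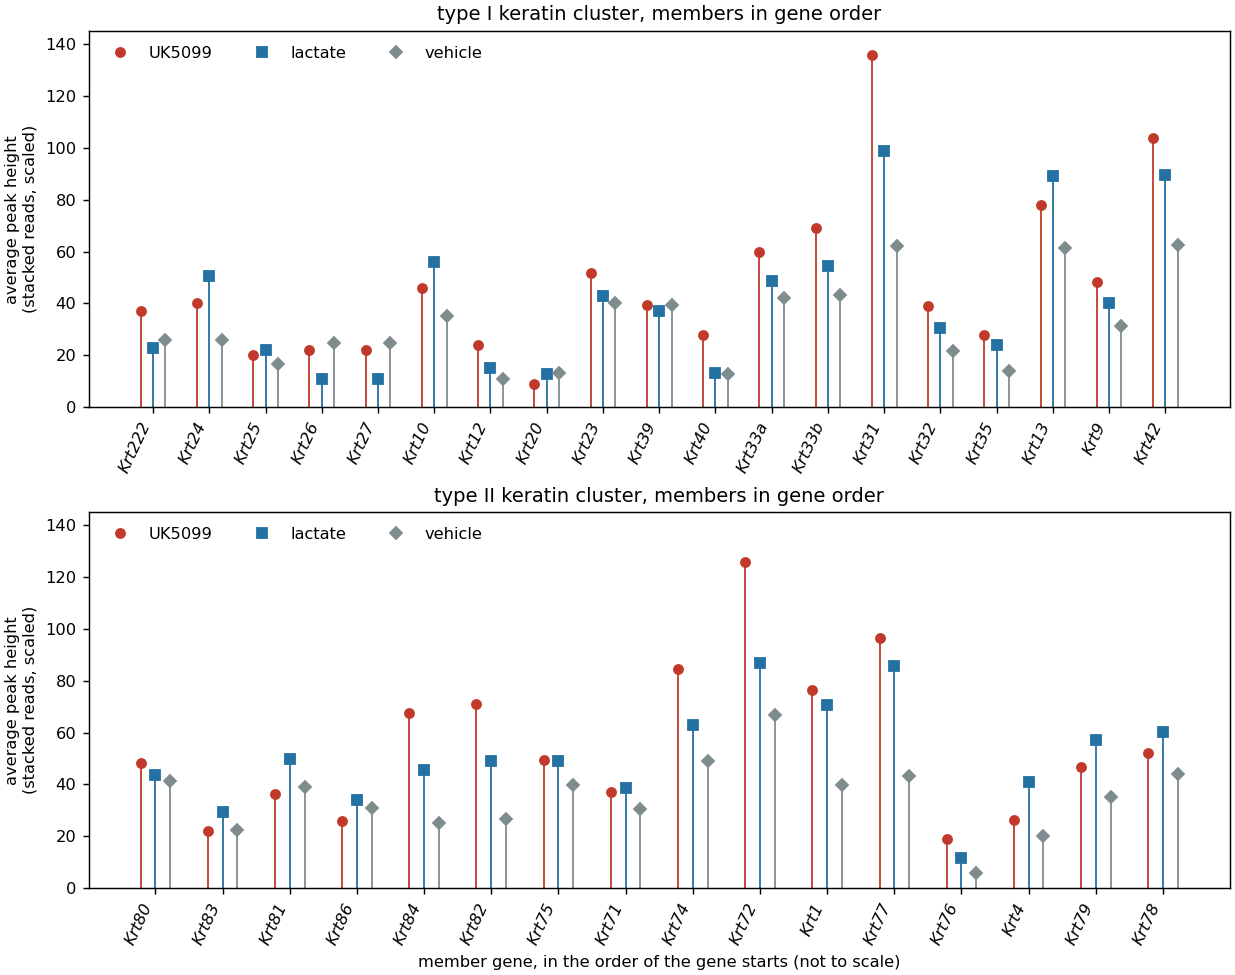
Average peak height (stacked reads as scaled by the authors, y axis) of each member in UK5099 (circles), lactate (squares) and vehicle (diamonds), in gene order (x axis, not to scale) along the type I cluster (top) and the type II cluster (bottom). *Krt31* reached 136.0 in UK5099 and *Krt72* 126.0, the highest values of their clusters, against 62.1 and 66.7 in vehicle.

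The signal of these keratins lay away from their starts. Within 1 kb of the gene start a peak was called for 4 of 35 members in UK5099 (11.4%) and 5 in lactate (14.3%), against 4 in vehicle (11.4%). Over all genes the share was 63.7% in UK5099 and 66.5% in lactate, against 65.1% in vehicle. Of the 7 basal and stress keratins 6 had such a peak in each of the 3 libraries, and so did all 4 simple epithelial keratins. A suprabasal or hair keratin thus rarely had open chromatin called at its start in any library, while the keratins of basal and luminal cells in the same clusters did.

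**Figure D2:**
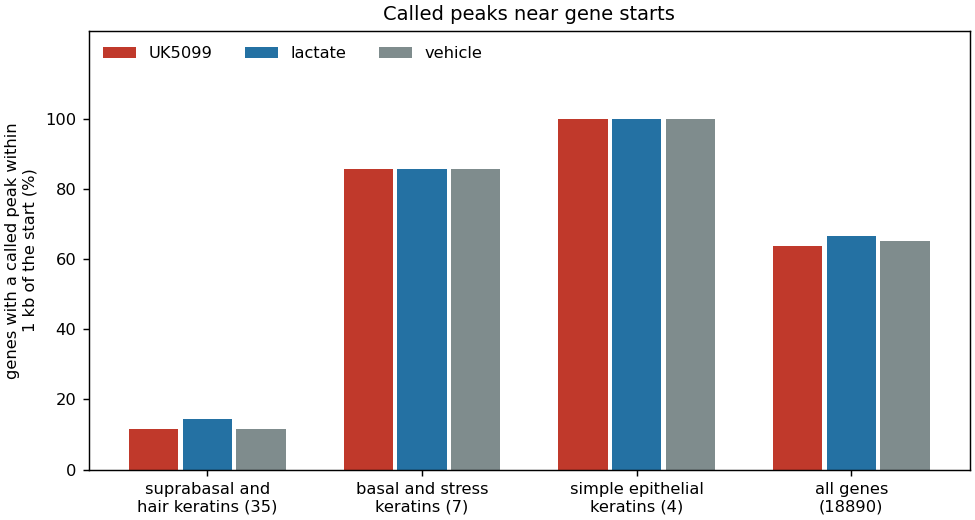
Share of genes with a called peak within 1 kb of the start (percent, y axis) in UK5099, lactate and vehicle, for the suprabasal and hair keratins, the basal and stress keratins, the simple epithelial keratins and all genes. The members stand at 11.4% to 14.3%, and all genes at 63.7% to 66.5%.

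Peaks of the 3 libraries that lay within 800 bp of each other were joined into 68 regions around the members. Of these, 38 were intergenic, 17 lay in an intron, 11 in an exon and 2 in an exon with an untranslated part (GENCODE M21, mm10). A peak was called in all 3 libraries at 36 regions (52.9%), beside 60.7% of 41868 regions at all genes. It was called in UK5099 alone at 9 (13.2%, beside 6.57%), in lactate alone at 11 (16.2%, beside 11.4%) and in vehicle alone at 1 (1.47%, beside 4.39%), and in both treated libraries without vehicle at 5 (7.35%, beside 6.54%). The libraries held 32375 called peaks in UK5099 and 38579 in lactate, against 32407 in vehicle. A region called in only 1 of these 3 libraries may have entered the table through that library, so a height that is larger there can follow in part from how the region was listed. It may also have entered through 1 further library, not analysed here, whose peaks were merged too. All regions of *Krt40* and *Krt76* were called in UK5099 alone, those of *Krt20* and *Krt25* in lactate alone and that of *Krt26* and *Krt27* in vehicle alone. Of the 35 members 21 shared a region with another member, so the members are not 35 separate measurements. This count leaves out regions shared only with genes that are no members. *Krt26* and *Krt27* had identical values from 1 shared region. *Krt9* shared regions with *Krt14*, *Krt42* with *Krt16* and *Krt17*, and *Krt83* with *Krt7*.

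The sequences of 6 regions are shown because each is the only region, or one of few, behind the height of a member described below. Each is the plus strand of mm10 (GRCm38), 300 bases around the position computed from the deposited distance to a gene start, which does not say which point of a peak it marks, and starts are those of GENCODE M21. Capitals mark the letters TGANTCA, the site of the AP-1 factors, or CCACNCCC, the CACCC box of Klf factors, found on either strand. The first region, chr11:100055883-100056182, lies 5481 bases upstream of the start of *Krt31*. The second, chr15:101536267-101536566, lies between *Krt84* and *Krt82*, 3596 bases upstream of *Krt84*. The third, chr15:101855595-101855894, lies between *Krt1* and *Krt77*, 4950 bases upstream of *Krt1*. The fourth, chr15:101887499-101887798, lies in an intron of *Krt76*. The fifth, chr15:101924779-101925078, lies 193 bases upstream of *Krt4*. The sixth, chr11:99341803-99342102, lies 3986 bases upstream of *Krt26*.
Krt31 upstream: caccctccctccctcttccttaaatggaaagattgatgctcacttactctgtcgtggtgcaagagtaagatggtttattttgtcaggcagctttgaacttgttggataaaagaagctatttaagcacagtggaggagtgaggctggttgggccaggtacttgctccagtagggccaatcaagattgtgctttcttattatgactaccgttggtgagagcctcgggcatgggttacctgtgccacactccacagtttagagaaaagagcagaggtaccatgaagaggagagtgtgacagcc
Krt84 and Krt82: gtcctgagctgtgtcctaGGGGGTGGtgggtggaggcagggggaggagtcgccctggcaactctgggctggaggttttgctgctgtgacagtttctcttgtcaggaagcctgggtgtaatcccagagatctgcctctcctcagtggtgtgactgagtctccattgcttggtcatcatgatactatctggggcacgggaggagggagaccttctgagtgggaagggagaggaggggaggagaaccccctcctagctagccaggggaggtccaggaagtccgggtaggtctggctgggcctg
Krt1 and Krt77: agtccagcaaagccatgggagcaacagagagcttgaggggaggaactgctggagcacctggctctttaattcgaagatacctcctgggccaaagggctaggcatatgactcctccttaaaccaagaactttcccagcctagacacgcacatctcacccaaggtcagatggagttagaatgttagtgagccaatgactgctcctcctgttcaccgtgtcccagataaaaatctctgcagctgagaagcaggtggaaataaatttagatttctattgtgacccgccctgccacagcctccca
Krt76 intron: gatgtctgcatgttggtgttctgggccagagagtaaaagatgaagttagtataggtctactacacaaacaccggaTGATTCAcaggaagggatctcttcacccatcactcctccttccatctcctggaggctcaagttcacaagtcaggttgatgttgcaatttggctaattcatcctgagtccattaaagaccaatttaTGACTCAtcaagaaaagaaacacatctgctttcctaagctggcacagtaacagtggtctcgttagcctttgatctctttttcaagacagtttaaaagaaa
Krt4 start: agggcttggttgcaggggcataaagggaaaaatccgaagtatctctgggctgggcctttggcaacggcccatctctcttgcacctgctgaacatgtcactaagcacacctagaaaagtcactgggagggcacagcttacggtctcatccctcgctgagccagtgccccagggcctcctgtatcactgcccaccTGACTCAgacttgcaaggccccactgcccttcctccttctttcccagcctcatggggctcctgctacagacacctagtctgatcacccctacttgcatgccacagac
Krt26 and Krt27: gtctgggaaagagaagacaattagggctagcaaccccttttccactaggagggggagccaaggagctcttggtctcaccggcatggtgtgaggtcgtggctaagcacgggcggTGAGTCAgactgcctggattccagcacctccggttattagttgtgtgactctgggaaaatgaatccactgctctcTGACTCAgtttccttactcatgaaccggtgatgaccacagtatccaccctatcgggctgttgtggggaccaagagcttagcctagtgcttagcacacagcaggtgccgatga

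Of these windows, those of *Krt76* and of *Krt26* and *Krt27* hold the AP-1 letters at 2 places and that of *Krt4* at 1. The window between *Krt84* and *Krt82* holds the Klf letters at 1 place, and those of *Krt31* and of *Krt1* with *Krt77* hold neither. Over the 68 member regions the AP-1 letters stood in 25 windows of 300 bases (36.8%), against 30.0% of 41868 windows at all regions, and the Klf letters in 8 (11.8%), against 15.3%. The median GC content was 52.7% at the member regions, against 52.3% at all regions. AACCNGGTT, the Grhl site, stood in 1 of 68 (1.47%), against 0.32%, and the p53 family half-site in 11 (16.2%), against 11.1%. TATAAA, the letters of the TATA box, stood in 10 (14.7%), against 9.9%, and CTTTGAAG, a LEF1 site, in 2 (2.94%), against 1.38%.

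UK5099 was compared with vehicle first. Of the 35 members 16 stood at 1.5-fold or more, beside 9.05% of all genes, and none at 0.5-fold or less, beside 1.36% of all genes. The median member stood at 1.42-fold, against 1.15-fold for the median gene, and 28 of 35 lay above that gene. Scaled so that the median gene is at 1, the median member stood at 1.23. Type I and type II members were alike in this, with 9 of 19 type I and 7 of 16 type II members at 1.5-fold or more. The median type I member stood at 1.43-fold and the median type II member at 1.31-fold. The counting interval lay above 1 for 21 members (beside 37.3% of all genes) and below 1 for none (beside 5.45%). Among genes of low signal ratios scatter more, so the counts are also given by height. Of the 28 members with a mean height below that of the median gene, 10 stood at 1.5-fold or more, beside 12.7% of such genes. Of the 7 above it 6 did, beside 5.39%. The mean is over all 3 libraries, so high treated heights helped to place a member above it. *Krt1*, *Krt74* and *Krt77*, among those 6, had 39.7, 49.1 and 43.4 in vehicle, below the all-gene median of 51.3 there. *Krt1* and *Krt77* share regions, as do *Krt72* and *Krt74*, so the 6 are not separate measurements.

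In lactate fewer members reached this limit by height. Of the 35 members 11 stood at 1.5-fold or more in lactate against vehicle, beside 6.07% of all genes, and 2 at 0.5-fold or less, beside 0.513%. These 2 are *Krt26* and *Krt27*, which share their only region, called as a peak in vehicle alone. The median member stood at 1.30-fold, against 1.18-fold for the median gene, or 1.11 once scaled to that gene. The counting interval lay above 1 for 22 members (beside 47.7% of all genes) and below 1 for 2 (beside 2.89%). Counted by the number of called peaks, the order of the treatments turned round, with 3 of 27 members at 1.5-fold or more in UK5099 (beside 12.6% of all genes) and 11 of 27 in lactate (beside 24%). Type I had 4 of 19 members at 1.5-fold or more, with a median of 1.28-fold, and type II 7 of 16, with a median of 1.34-fold. All 16 type II members were above vehicle as deposited, and 14 of them, all but *Krt80* and *Krt86*, above the median gene.

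In both comparisons with vehicle 8 members stood at 1.5-fold or more, namely *Krt1*, *Krt24*, *Krt31*, *Krt35*, *Krt76*, *Krt77*, *Krt82* and *Krt84*, or 22.9% beside 2.75% of all genes. A further 8 did so in UK5099 (*Krt9*, *Krt12*, *Krt32*, *Krt33b*, *Krt40*, *Krt42*, *Krt72* and *Krt74*), or 22.9% beside 6.31%, and a further 3 in lactate (*Krt4*, *Krt10* and *Krt79*), or 8.57% beside 3.31%. Both comparisons share the 1 vehicle library. The treated libraries were therefore also set against each other, which leaves vehicle out. Of the 35 members 6 stood at 1.5-fold or more in UK5099 against lactate, beside 3.71% of all genes, and none at 0.5-fold or less, beside 1.43%. The median member stood at 1.16-fold, against 0.983-fold for the median gene. Of the type I members 5 of 19 reached 1.5-fold, with a median of 1.21-fold, and of the type II members 1 of 16, with a median of 1.04-fold. The counting interval lay above 1 for 16 members (beside 12% of all genes) and below 1 for 3 (beside 15.7%). The 6 at 1.5-fold or more (*Krt12*, *Krt26*, *Krt27*, *Krt40*, *Krt76* and *Krt222*) belonged to the 14 members whose mean height was below the lower quartile of all genes, and their UK5099 heights rested on 19 to 72 stacked reads. For 4 of them, *Krt26*, *Krt27*, *Krt40* and *Krt76*, the only region was called in a single library.

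**Figure D3:**
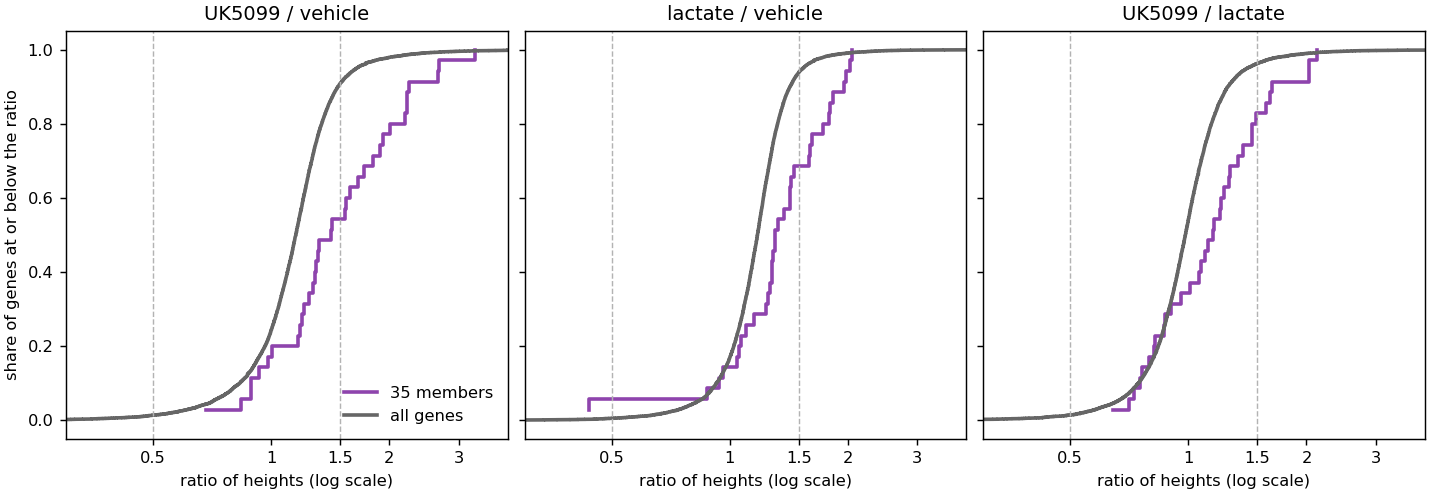
Cumulative share of genes (y axis) at or below a ratio of heights (x axis, log scale) for UK5099 against vehicle, lactate against vehicle and UK5099 against lactate, members in purple and all genes in grey, with dashed lines at 0.5 and 1.5. The member curve lies to the right of the curve of all genes over most of its range in the panel of UK5099 against vehicle, where the medians are 1.42 and 1.15.

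Among the epidermal suprabasal keratins 3 of 4 stood at 1.5-fold or more of vehicle under each treatment. Over all genes the share was 9.05% in UK5099 and 6.07% in lactate. The medians of these 4 were 1.73-fold in UK5099 and 1.69-fold in lactate. *Krt77*, a type II keratin of suprabasal epidermis, had a height of 96.5 in UK5099 and 85.7 in lactate, against 43.4 in vehicle. It thus stood at 2.22-fold (1.79 to 2.77) in UK5099 and 1.98-fold (1.63 to 2.41) in lactate. *Krt1*, the type II chain of the pair that marks the first suprabasal layer, had 76.3 in UK5099 and 70.8 in lactate, against 39.7 in vehicle. Both treated values exceeded vehicle, at 1.92-fold (1.59 to 2.33) in UK5099 and 1.79-fold (1.51 to 2.12) in lactate, and they differed little from each other. *Krt10*, its type I partner on the other chromosome, had 46.0 in UK5099 and 56.1 in lactate, against 35.1 in vehicle. Its ratio was 1.31-fold (0.875 to 1.96) in UK5099, an interval that holds 1, and 1.6-fold (1.17 to 2.21) in lactate. *Krt9*, the type I keratin of palm and sole skin, stood at 1.54-fold in UK5099 and 1.28-fold in lactate. At least 2 of its 4 regions are shared with *Krt14*, and not all 4 could be placed from the called peaks.

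The difference at *Krt1* lay in the regions it shares with *Krt77* and not in its own. Because neighbouring genes share regions, subtracting the sums of nested genes gave the heights of 15 single regions and of 20 sums of 2 or more regions. The region in an exon of *Krt1* had 36.0 in UK5099 and 41.0 in lactate, against 32.2 in vehicle, or 1.12-fold (0.715 to 1.73) in UK5099 and 1.27-fold (0.90 to 1.82) in lactate. The pair of regions between *Krt1* and *Krt77* and in an exon of *Krt77* had a summed height of 193 in UK5099 and 171.5 in lactate, against 86.8 in vehicle. That sum makes up the whole value of *Krt77* and most of that of *Krt1*. The region between the genes, whose sequence is given above, was called in all 3 libraries and the one in *Krt77* in lactate alone.

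Among the keratins of internal stratified epithelia, 3 of 4 had a larger height in lactate than in UK5099, beside 10217 of 18889 genes. Within this group the counting interval left 1 for *Krt4* alone. *Krt4* had 26.3 in UK5099 and 41.0 in lactate, against 20.3 in vehicle, so that lactate stood at 2.02-fold (1.6 to 2.55) and UK5099 at 1.30-fold (0.957 to 1.75). The ratio of UK5099 to lactate was 0.642 (0.493 to 0.829), the lowest of the type II members. The value of *Krt4* is a sum over 3 regions, which could not be separated. The window shown above is 1 of them and a further one was called in lactate alone. *Krt13*, its type I partner, had 78.0 in UK5099 and 89.3 in lactate, against 61.2 in vehicle, or 1.27-fold (1.03 to 1.57) in UK5099 and 1.46-fold (1.23 to 1.73) in lactate. Both chains of this pair therefore stood above vehicle and above the median gene under both treatments, and below 1.5-fold in 3 of the 4 values. *Krt78*, a further keratin of stratified epithelia, stood at 1.19-fold in UK5099 and 1.37-fold in lactate. *Krt76*, a keratin of the hard palate, had the lowest vehicle height of all members, with 19.0 in UK5099 and 11.8 in lactate, against 5.75 in vehicle. Its 3.31-fold in UK5099 (1.46 to 7.96) and 2.05-fold in lactate (0.951 to 4.78) rest on 19 reads in UK5099 and 25 in lactate, against 10 in vehicle. Its only region, the intron window shown above, was called as a peak in UK5099 alone, so its ratio carries the limit on such regions given above.

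*Krt79*, a keratin of the upper hair follicle that lies beside *Krt4* and *Krt78* and shares regions with both, followed the same order. It stood at 1.32-fold in UK5099 and 1.62-fold in lactate. All 4 of its regions are shared, 2 with *Krt4* and 2 with *Krt78*. The ratio of UK5099 to lactate was 0.818 (0.688 to 0.971) for *Krt79*, and for *Krt78* it was 0.864 (0.713 to 1.04), an interval that holds 1. For *Krt1*, *Krt77* and *Krt76*, which lie just before them, this interval held 1 as well.

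All 7 hair shaft keratins of type I had a larger height in UK5099 than in lactate (median 1.27-fold), beside 8672 of 18889 genes. The counting interval lay above 1 for 5 of these 7 keratins, beside 12% of all genes. In UK5099 5 of 7 stood at 1.5-fold or more of vehicle, beside 9.05% of all genes, with a median of 1.82-fold. In lactate 2 of 7 did, beside 6.07%, with a median of 1.25-fold. *Krt31*, a keratin of the hair cortex, had 136.0 in UK5099 and 98.9 in lactate, against 62.1 in vehicle. This is the highest height of any member in both treated libraries, at 2.19-fold (1.69 to 2.85) of vehicle in UK5099 and 1.59-fold (1.26 to 2.03) in lactate, and the ratio of UK5099 to lactate was 1.37 (1.10 to 1.71). It comes from 1 region, called in all 3 libraries, of which the upstream window shown above is a part. The listed position of the vehicle peak, 100056512, lies beyond the end of that window.

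*Krt35*, a keratin of the hair matrix and cuticle, had 27.7 in UK5099 and 23.9 in lactate, against 13.8 in vehicle, or 2.01-fold (1.45 to 2.79) in UK5099 and 1.73-fold (1.30 to 2.32) in lactate. *Krt32*, which lies beside it and shares regions with it, stood at 1.82-fold in UK5099 and 1.42-fold in lactate. *Krt40*, a late hair keratin, had 28.0 in UK5099 and 13.2 in lactate, against 12.6 in vehicle. It stood at 2.12-fold (1.21 to 3.72) of lactate in UK5099, and its single region, called as a peak in UK5099 alone, is also the only region of *Krtap3-2* and *Krtap3-3*. The interval takes no account of that listing. *Krt33b* stood at 1.59-fold in UK5099 and 1.25-fold in lactate, *Krt33a* at 1.42-fold in UK5099 and 1.16-fold in lactate, and *Krt39*, at 1.0-fold in UK5099 and 0.940-fold in lactate, was the 1 member of this group that lay below the median gene in UK5099. The region that *Krt33a* does not share stood at 1.06-fold in UK5099, whereas the pair it shares with *Krt33b* stood at 1.59-fold.

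The hair shaft keratins of type II fell into separate stretches. *Krt84* and *Krt82*, neighbours that share a region, had the highest ratios of the members with more than 100 stacked reads in UK5099. *Krt84* had 67.5 in UK5099 and 45.5 in lactate, against 25.3 in vehicle, or 2.67-fold (2.03 to 3.53) in UK5099 and 1.80-fold (1.39 to 2.34) in lactate. *Krt82*, a keratin of the hair cuticle, had 71.0 in UK5099 and 49.0 in lactate, against 26.7 in vehicle, or 2.66-fold (2.03 to 3.49) in UK5099 and 1.83-fold (1.43 to 2.37) in lactate. The only peak called for either gene in UK5099 and in vehicle was the shared one between them shown above.

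The cortex keratins *Krt81*, *Krt83* and *Krt86*, in the same cluster, had smaller heights in UK5099 than in vehicle, with an interval that holds 1 for each. *Krt81* had 36.3 in UK5099 and 49.9 in lactate, against 39.1 in vehicle, or 0.930-fold (0.730 to 1.18) in UK5099 and 1.28-fold (1.07 to 1.53) in lactate. *Krt86* had 26.0 in UK5099 and 34.2 in lactate, against 31.0 in vehicle, or 0.838-fold (0.590 to 1.18) in UK5099 and 1.10-fold (0.852 to 1.43) in lactate. The UK5099 value was the lowest of the 3 at both genes, and *Krt83* stood at 0.982-fold in UK5099 and 1.30-fold in lactate. These are the 3 lowest type II ratios of UK5099 to vehicle. *Krt81* and *Krt86* share the region 262 bases upstream of *Krt86*, which stood at 0.786-fold (0.484 to 1.25) in UK5099 and 1.22-fold (0.872 to 1.71) in lactate. They lie beside *Krt7*, a simple epithelial keratin, which had 28.5 in UK5099 and 39.9 in lactate, against 28.4 in vehicle.

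**Figure D4:**
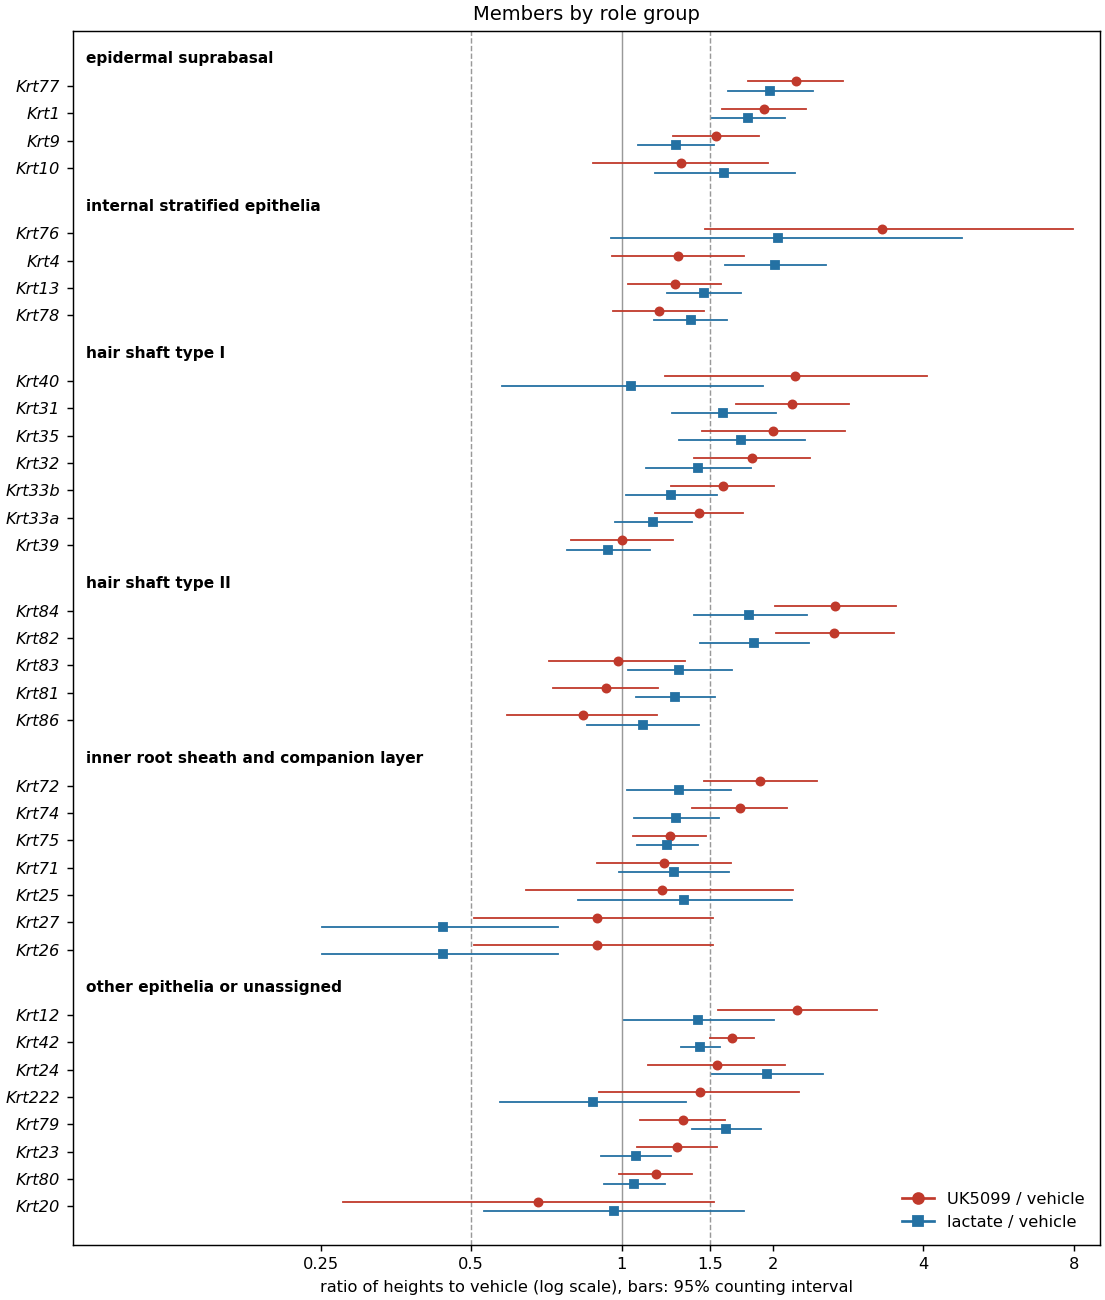
Ratio of heights to vehicle (x axis, log scale) for each member (y axis), grouped by role, UK5099 as circles and lactate as squares, with bars for 95% counting intervals and dashed lines at 0.5 and 1.5. *Krt82* and *Krt84* stand at 2.66 and 2.67 in UK5099, while *Krt81*, *Krt83* and *Krt86* stand at 0.930, 0.982 and 0.838, and *Krt26* and *Krt27* share 1 value of 0.438 in lactate.

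Keratins of the inner root sheath and companion layer, the layers that mould and anchor the growing hair, make up 7 members. Of these, 2 stood at 1.5-fold or more in UK5099, beside 9.05% of all genes, and none in lactate, beside 6.07%. *Krt72* had 126.0 in UK5099 and 86.7 in lactate, against 66.7 in vehicle, the highest vehicle height of all members. It stood at 1.89-fold (1.46 to 2.45) in UK5099 and 1.30-fold (1.03 to 1.66) in lactate, from 1 intergenic region that it shares with *Krt74*. *Krt74* stood at 1.72-fold in UK5099 and 1.28-fold in lactate, and its other region, shared with *Krt71*, at 1.36-fold (0.891 to 2.06) in UK5099. *Krt71* stood at 1.21-fold in UK5099 and 1.27-fold in lactate and *Krt75*, the companion layer keratin, at 1.25-fold in UK5099 and 1.23-fold in lactate. Both regions of *Krt74* are shared, while *Krt75* shares none with *Krt71*, *Krt72* or *Krt74* and 1 with *Krt82*.

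*Krt26* and *Krt27*, type I keratins of the inner root sheath, were the members at 0.5-fold or less of vehicle in lactate. Their shared region had 22 in UK5099 and 10.8 in lactate, against 24.7 in vehicle, from 22 stacked reads in UK5099 and 23 in lactate, against 43 in vehicle. Lactate stood at 0.438-fold (0.252 to 0.744) of vehicle and UK5099 at 0.890-fold (0.507 to 1.52). Of the member regions it is the only one called as a peak in vehicle alone, so that a low ratio to vehicle can follow in part from how it was listed. The intervals take no account of that. Its sequence is the last of those above, and it was high in UK5099 relative to lactate at 2.03-fold (1.08 to 3.81). *Krt25*, the next gene of the same sheath, stood at 1.2-fold in UK5099 and 1.33-fold in lactate.

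Of the 8 remaining members, 3 stood at 1.5-fold or more in UK5099, beside 9.05% of all genes, and 2 in lactate, beside 6.07%. *Krt12*, the type I keratin of the cornea, had 24 in UK5099 and 15.2 in lactate, against 10.7 in vehicle, or 2.24-fold (1.56 to 3.23) in UK5099 and 1.42-fold (1.01 to 2.01) in lactate. Its 2 downstream regions stood at 3.32-fold (2.15 to 5.23) in UK5099 and 1.74-fold (1.13 to 2.72) in lactate. Of the 3 libraries both were called as a peak in UK5099 alone, and the intervals take no account of how they were listed. *Krt20*, a keratin of gut and urothelium, had 9 in UK5099 and 12.7 in lactate, against 13.2 in vehicle. Its 0.681-fold in UK5099 (0.277 to 1.53), the lowest of all members, rests on 9 reads and holds 1, and its ratio of 0.962-fold in lactate (0.531 to 1.76) does too. The value is that of 1 region in an exon of *Krt20* that it shares with *Krt12*.

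*Krt42* had 103.7 in UK5099 and 89.7 in lactate, against 62.5 in vehicle, or 1.66-fold (1.5 to 1.84) in UK5099 and 1.43-fold (1.31 to 1.57) in lactate, and 6 of its 7 regions are shared with *Krt17*. *Krt17* itself had 115.1 in UK5099 and 92.5 in lactate, against 73.2 in vehicle. *Krt24* had 40.0 in UK5099 and 50.4 in lactate, against 25.9 in vehicle. It stood at 1.55-fold (1.13 to 2.11) in UK5099 and 1.95-fold (1.52 to 2.52) in lactate, the highest lactate ratio of the type I members. One of its regions was called as a peak in lactate alone, so that ratio carries the limit on such regions given above. *Krt80* had 48.2 in UK5099 and 43.6 in lactate, against 41.3 in vehicle, with 1.17-fold (0.988 to 1.38) in UK5099 and 1.06-fold (0.919 to 1.22) in lactate, the lowest type II ratio there. *Krt23* stood at 1.29-fold in UK5099 and 1.07-fold in lactate and *Krt222* at 1.43-fold in UK5099 and 0.874-fold in lactate. The only region of *Krt222* lies in an exon with an untranslated part of *Smarce1*, a chromatin remodelling subunit, 585 bases downstream of the *Smarce1* start, and is listed for that gene too.

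**Figure D5:**
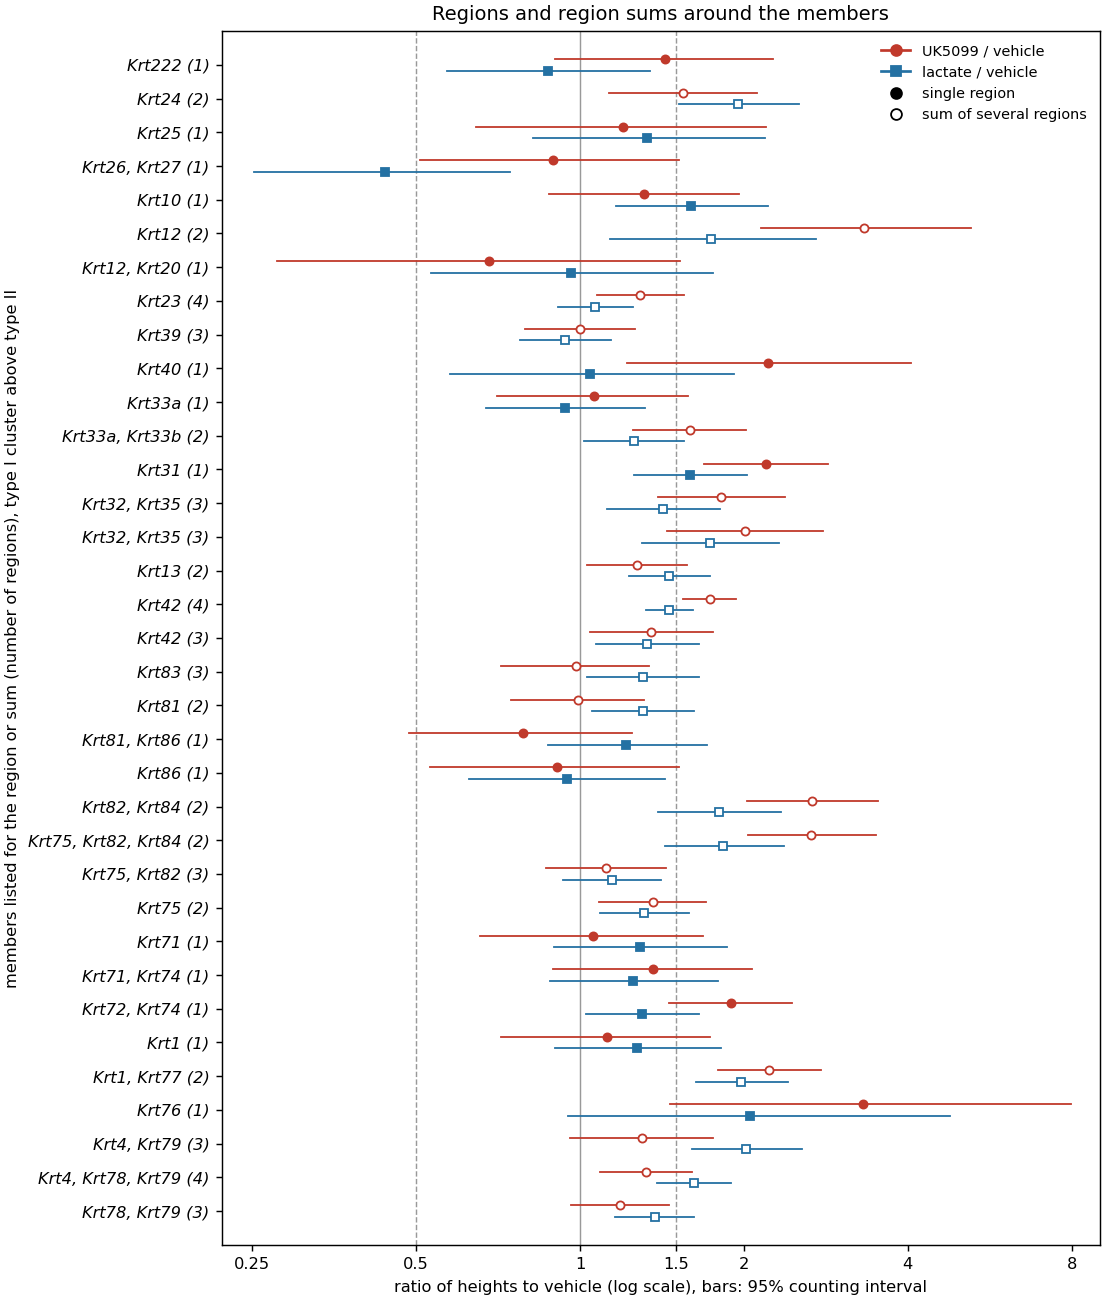
Ratio of heights to vehicle (x axis, log scale) for the 15 single regions (filled) and 20 region sums (open) around the members (y axis, members that list them, with the number of regions), UK5099 as circles and lactate as squares, bars as 95% counting intervals. The single region of *Krt1* stands at 1.12 in UK5099, and the pair that *Krt1* and *Krt77* share at 2.22.

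The promoters of the members were searched for short motifs. RefSeq promoters (250 bases before to 50 after the start, GRCm38.p6) were found for 25 of the 35 members. TATAAA, the letters of the TATA box, stood on either strand in 15 of 25 (60.0%), beside 9.03% of 13885 promoters, and CTTTGAAG, the site of LEF1 in hair keratin promoters, in 4 of 25 (16.0%), beside 1.35%. In 9 of the 13 promoters with TATAAA on the gene's own strand it began between 24 and 32 bases before the start. The AP-1 letters stood in 1 of 25 (4.0%), beside 5.89%, the Klf letters in 6 (24%), beside 22.4%, the p53 family half-site in 2 (8.0%), beside 7.24%, and the Grhl letters in none, beside 0.26%. The promoters with CTTTGAAG were those of *Krt31*, *Krt32*, *Krt33b* and *Krt39*.

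Of these, *Krt31*, *Krt32* and *Krt33b* are shown because they are hair shaft genes that hold CTTTGAAG at almost the same place, beginning 244, 247 and 247 bases before the start. In *Krt39* it lies on the other strand, beginning 20 bases before the start. Of the other hair shaft members with a promoter, *Krt40*, *Krt82* and *Krt84*, which stood at 2.21-fold, 2.66-fold and 2.67-fold in UK5099, hold none. Each line is the 250 bases before the start on the gene's strand, with CTTTGAAG and TATAAA in capitals, at chr11:100050552-100050801, chr11:100088270-100088519 and chr11:100029869-100030118, all on the minus strand. No peak was called within 1 kb of any of these 3 starts in any library.
Krt31 promoter: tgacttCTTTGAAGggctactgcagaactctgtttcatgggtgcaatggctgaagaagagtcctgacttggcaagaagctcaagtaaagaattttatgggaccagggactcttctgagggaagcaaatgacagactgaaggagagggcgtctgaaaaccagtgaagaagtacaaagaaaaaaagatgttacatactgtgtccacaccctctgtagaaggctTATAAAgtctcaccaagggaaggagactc
Krt32 promoter: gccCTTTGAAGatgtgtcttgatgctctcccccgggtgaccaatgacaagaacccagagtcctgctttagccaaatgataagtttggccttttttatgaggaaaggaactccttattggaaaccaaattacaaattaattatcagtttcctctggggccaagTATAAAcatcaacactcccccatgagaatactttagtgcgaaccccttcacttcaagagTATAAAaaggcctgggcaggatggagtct
Krt33b promoter: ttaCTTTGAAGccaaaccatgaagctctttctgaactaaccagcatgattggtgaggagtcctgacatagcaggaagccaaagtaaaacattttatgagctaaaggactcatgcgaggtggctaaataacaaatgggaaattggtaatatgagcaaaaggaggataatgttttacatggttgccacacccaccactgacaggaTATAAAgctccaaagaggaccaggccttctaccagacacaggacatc

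Other genes of the keratin filament system differed by kind. The 23 listed filament partners and processing enzymes had medians of 1.38-fold in UK5099 and 1.32-fold in lactate. Of these, 10 stood at 1.5-fold or more in UK5099, beside 9.05% of all genes, and 5 in lactate, beside 6.07%. In UK5099 against lactate 3 did, beside 3.71%. Of the 18 keratin-associated proteins, which fill the matrix between hair filaments, 3 reached 1.5-fold in UK5099, beside 9.05% of all genes. A further 3 lay at 0.5-fold or below it, beside 1.36%, and the median was 0.95-fold. Among the 3 high ones *Krtap3-2* and *Krtap3-3* have identical values from 1 region, and among the 3 low ones *Krtap5-1* and *Krtap5-4* have identical values. In lactate 1 was above, beside 6.07% of all genes, and 2 below these limits, beside 0.513%, with a median of 0.965-fold. The 13 keratin-associated protein genes that lie inside the type I cluster had medians of 1.16-fold in UK5099 and 1.04-fold in lactate, against 1.43-fold in UK5099 and 1.28-fold in lactate for the type I members around them. The median height of these 13 was 42.0 in UK5099 and 34.9 in lactate, against 34.8 in vehicle, and that of all 18 was 28.0 in UK5099 and 26.4 in lactate, against 24.6 in vehicle.

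The 19 listed regulators of suprabasal and hair keratins had medians of 1.24-fold in UK5099 and 1.29-fold in lactate. Of these, 3 stood at 1.5-fold or more in UK5099, beside 9.05% of all genes, and none in lactate, beside 6.07%. They were *Zfp750*, a factor of epidermal differentiation, with 97.3 in UK5099 and 65.5 in lactate, against 45.8 in vehicle, *Grhl3*, needed for the skin barrier, and *Cebpa*. *Grhl3* stood at 1.73-fold in UK5099 and 1.41-fold in lactate, and *Cebpa* at 1.5-fold in UK5099 and 1.36-fold in lactate. *Lef1* had 24 in UK5099 and 30.8 in lactate, against 23.6 in vehicle, and *Klf4* 57.8 in UK5099 and 66.7 in lactate, against 60.9 in vehicle. The keratins left out of the members stood apart from each other as well. The 7 basal and stress keratins had a median of 1.49-fold in UK5099 and 1.26-fold in lactate, and the 4 simple epithelial keratins one of 0.905-fold in UK5099 and 1.21-fold in lactate, with *Krt18* at 0.376-fold in UK5099 and 0.986-fold in lactate. The basal and stress keratins lie in the same clusters and share regions with *Krt9* and *Krt42*, and their part in the values of those members was not tested.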

How the data were processed

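ATAC-seq was read from 1 library each of organoids with 10 µM UK5099, 20 mM sodium lactate or vehicle, all at day 7, grouped by the treatment in the sample labels. Per the study's methods, cryopreserved cells were tagmented, and read pairs were aligned with BWA, freed of duplicates, extended in silico and stacked in bins. Each library had its own peak calls, made with no control. The build was mm10 and the caller MACS3 per the submitters' processing notes, and an earlier MACS per the study's methods. Nothing in the sources used here says whether reads were shifted for the transposase. The authors deposited a table of 18890 genes with the average peak height per library, a signal of stacked coverage, averaged over the merged regions up to about 10 kb around a gene, as well as the number of merged regions and each called peak with its distance to the gene start. Peaks of 1 further library, not analysed here, also entered the merging.

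The members and gene lists were chosen with earlier results of these data known. Ratios of heights were taken without a pseudocount, UK5099 or lactate over vehicle and UK5099 over lactate, and counted at the study's limits of 1.5 and 0.5. There was no test, since each group has 1 library here. The study's methods also describe a differential test over replicates of each condition, which is not used here. Heights times regions were whole multiples of a step (1.00 in UK5099, 0.471 in lactate and 0.575 in vehicle) for at least 99.99% of genes within 0.05. Heights divided by the step gave the stacked reads behind the 95% intervals. Reads at 1 maximum overlap and are not separate molecules. Peaks within 800 bp were joined, the distance that best matched the deposited region numbers (87.4% of genes and 33 of 35 members), and heights of nested genes were subtracted, with a largest residual of 0.0003. Members given in full were *Krt1*, *Krt4*, *Krt10*, *Krt13*, the 3 highest and 2 lowest ratios per cluster and comparison, and the 3 highest vehicle heights. The others are given by group. Python 3.11.15, numpy 2.4.6, scipy 1.17.1, pandas 2.3.3 and matplotlib 3.10.9 were used. The code for ratios and intervals was also run on simulated independent counts. The intervals assume such counts, so that run cannot show how well they cover the overlapping reads of these data.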

Additional observations from a re-analysis of the deposited data

How the results depend on the processing

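With 1 library per group no library could be left out. No paired analysis was possible because no group has a second library. For UK5099 against vehicle the share of members at 1.5-fold or more, 45.7%, was 11.4% with a pseudocount of the median height (56.3), beside 0.254% of all genes, 11.1% by the number of called peaks, beside 12.6%, 22.9% at a limit of 2, beside 2.05%, and 85.7% among the 7 members at or above the median height, beside 5.39%. The median ratio was 1.14 with that pseudocount, 1.89 among those 7 and 1.0 by called peaks. It was 1.23 when libraries were scaled to the same total or by median of ratios. The share at 1.5-fold or more was 31.4% under both scalings (beside 3.89% and 3.93% of all genes). Those 7 were picked by a mean that includes the treated heights, so their share and median may follow in part from that choice. For lactate against vehicle the upper share of 31.4% was 0% with that pseudocount (beside 0.037% of all genes), 20.0% under both scalings (beside 1.77% and 1.76%), 5.71% at a limit of 2 (beside 0.858%) and 40.7% by called peaks (beside 24%), and the median of 1.30 was 1.11 with that pseudocount and under both scalings, and 1.0 by called peaks. The lower share of 5.71%, beside 0.513% of all genes, was 10.5% among type I members and 0% among type II members. It was 0% with either pseudocount (beside 0.148% and 0%) and with either height filter (beside 0.021% and 0%). By called peaks (beside 3.16%) and among members with a called peak in both libraries (beside 0.143%) it was 0% too. With *Krt26* and *Krt27* counted once it was 2.94% (beside 0.498%). For UK5099 against lactate the upper share of 17.1%, beside 3.71% of all genes, was 26.3% for type I and 6.25% (1 of 16) for type II. At a limit of 2 it was 8.57% (beside 1.02%). It was 0% with the larger pseudocount (beside 0.074%) and with either height filter (beside 1.37% for the lower quartile and 0.879% for the median). By called peaks it was 6.90% (beside 6.76%), as it was among members with a called peak in both (beside 2.41%). The lower share of 0% was 17.2% by called peaks (beside 14.1%) and 2.86% at a limit of 1 over 1.5 (beside 5.45%). The cause of these differences was not tested. Leaving out the 3 members that share regions with a basal, stress or simple keratin was chosen after seeing the data. It left 14 of 32, 11 of 32 and 6 of 32 members at 1.5-fold or more in the comparisons in this order. The shares over all genes were 9.05%, 6.07% and 3.71%. Of 252 values of 21 members under other pseudocounts and scalings, 225 stayed within their counting interval and 27 moved beyond it. Ratios called at 1.5 or 0.5 could not change direction here. A pseudocount cannot move a ratio across 1, and these scalings were too small to do so from those limits. Under both scalings 5 members that stood above vehicle in lactate lay below it, *Krt80* at 0.90-fold, *Krt86* at 0.94-fold, *Krt40* at 0.89-fold, *Krt23* at 0.91-fold and *Krt33a* at 0.98-fold, as did *Krt39* in UK5099. The 15 single regions had the same heights with joining distances of 500 to 1200 bp, and 14 of them with 300 and 400 bp.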
